A study of Mus musculus with 2 samples.

Results

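Fc receptors bind the constant part of antibodies, and the adaptors described here carry the immunoreceptor tyrosine-based activation motif (ITAM) through which such receptors signal. This set comprised 9 genes, *Fcer1g*, *Fcgr1*, *Fcgr2b*, *Fcgr3*, *Fcgr4*, *Tyrobp*, *Trem2*, *Fcgrt* and *Syk*, which were taken by symbol from the 18159 genes of the deposited mRNA-seq table, and all 9 had a row. The tissue was jejunal tunica muscularis, that is, the muscle layers of the small intestine peeled from the mucosa with whatever other cells they hold, from mice 15 days old on a C57BL/6 background. Both genotypes carry a transgene that expresses Cre and eGFP from the *Myh11* promoter (smMHC Cre-eGFP/+). *Dnmt1*-KO mice additionally carry floxed *Dnmt1* alleles, so that DNMT1, the maintenance DNA methyltransferase, is deleted in smooth muscle cells (SMCs) and, by design, not in leukocytes. The strain label reads *Dnmt1*lox/lox for both samples and the free-text description names the knockout for both, whereas the genotype label separates *Dnmt1* WT from *Dnmt1* KO, and the genotype label was used. Mice of both sexes stand behind each genotype, how their RNA was combined is not stated, and each genotype has 1 library.

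The activating receptors for immunoglobulin G, encoded by *Fcgr1*, *Fcgr3* and *Fcgr4*, have no ITAM of their own and depend on the common gamma chain encoded by *Fcer1g*. *Tyrobp* encodes DAP12, the matching adaptor for TREM2 and other myeloid receptors. When the tyrosines of an ITAM are phosphorylated by Src-family kinases, the kinase SYK binds and passes the signal on to phagocytosis, calcium release and the oxidative burst. *Fcgr2b* encodes the inhibitory receptor of the family, which carries an inhibitory motif (ITIM) instead. *Fcgrt* encodes the heavy chain of the neonatal Fc receptor FcRn, which pairs with beta-2-microglobulin, carries immunoglobulin G and albumin through cells and uses no ITAM. In tissues most of these genes are known from macrophages and other myeloid cells, whereas *Fcgrt* is also known from endothelium and, in suckling rodents, from the intestinal epithelium.

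The table gives FPKM (fragments per kilobase of transcript, scaled to the mapped fragments of the library), a level already scaled to transcript length and library size. Summed FPKM was 429698 for *Dnmt1*-WT and 460845 for *Dnmt1*-KO, and the table holds no read counts, so the number of reads behind a single value was not computed here. The targeted gene *Dnmt1* had 11.58 FPKM in *Dnmt1*-WT against 7.58 FPKM in *Dnmt1*-KO. By design the other cells of the tissue keep the gene, and the deletion removes only some of its exons. What the remaining level reflects was not tested. The defining smooth muscle transcripts of the labelled tissue were abundant in both libraries. All 10 of a marker list had a smaller FPKM in *Dnmt1*-KO, 3 of them at 0.5 or less of the *Dnmt1*-WT value and 7 above that. Their summed level was 17017.10 FPKM in *Dnmt1*-WT against 12272.94 FPKM in *Dnmt1*-KO. With 1 library per genotype, no difference in this table has a replicate library as a check, and no test was possible. The paper also measured some genes of this tissue by qPCR. By flow cytometry it reports more cells with the leukocyte marker CD45 in *Dnmt1*-KO tissue. Neither was analysed here. A ratio is the *Dnmt1*-KO FPKM over the *Dnmt1*-WT FPKM, and a gene is called higher or lower when that ratio is 2 or more or 0.5 or less.

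Each of the 9 genes had a higher level in *Dnmt1*-KO, and 8 of them were at least doubled, with *Fcgrt* as the exception. In whole tissue, more cells of a type and more RNA per cell cannot be told apart, and the macrophage markers described further on were higher too, by 3.47-fold in their sum. Among all 16102 genes above 0 FPKM in both libraries, 11.8% reached a ratio of 2 or more and 4.98% a ratio of 0.5 or less. Doubling was less common among better expressed genes, at 6.08% of those with 5 FPKM or more in at least 1 library. Of the members in that range, *Fcgr2b* and *Fcgr4* enter it through the *Dnmt1*-KO library alone, so their count is not set against that share. A ratio of 4 or more was reached by 5 of the 9 genes and by 4.25% of all genes. Scaling both libraries to the same FPKM sum would lower every log2 ratio by 0.10. The median log2 ratio of the 9 genes, with 0.1 added to each FPKM, was 1.95, against 0.02 over the 17585 genes above 0 in at least 1 library.

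**Figure D1:**
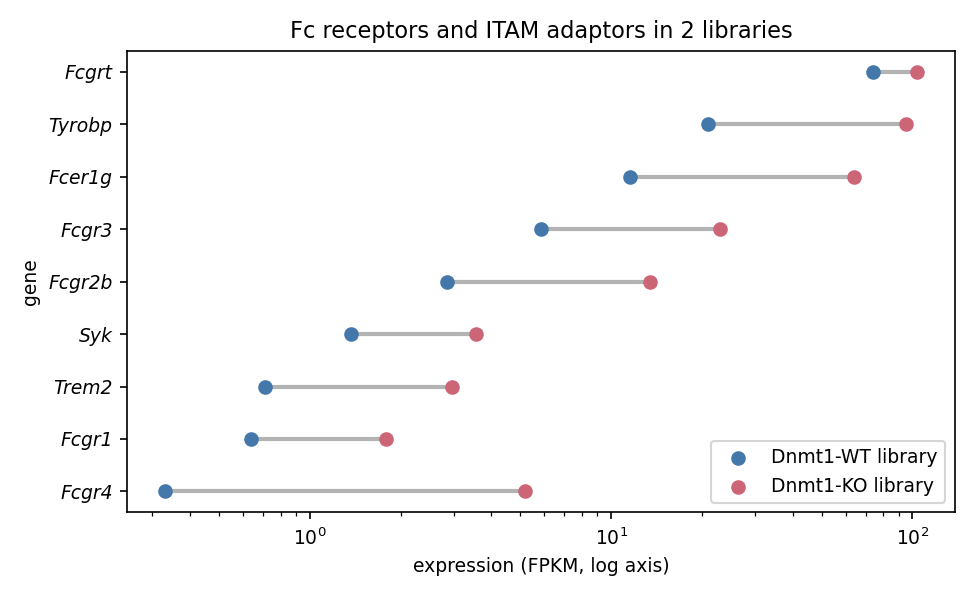
Expression of the 9 genes in FPKM on a log axis, with a blue point for the Dnmt1-WT library and a red point for the Dnmt1-KO library of each gene, ordered by the Dnmt1-WT level. Every red point lies to the right of its blue point, with the widest gap for Fcgr4 (0.33 and 5.17 FPKM) and the narrowest for Fcgrt (73.79 and 103.64 FPKM).

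The upstream sequences are shown first because 4 of the receptor genes that were higher share a short element there. The RefSeq promoter windows of GRCm38.p6 (250 bases before to 50 after a start site) include 8 of the 9 genes, and *Tyrobp* has no window. The 7-letter word GAGGAAG, the purine-rich core bound by ETS factors such as PU.1, was searched on both strands, where it reads CTTCCTC. It occurred in the windows of *Fcgr1*, *Fcgr3*, *Fcgr4* and *Trem2*, compared with 13.6% of all 32851 windows, 2 of 8 windows of the macrophage markers (25%) and 2 of 11 of the pan-leukocyte markers (18.2%) described further on. All 4 genes held it within the 80 bases before a start site, where 3.88% of all windows did. In that stretch the share was 5.93% for windows of genes with a ratio of 2 or more. It was 12.5% for the macrophage markers (1 of 8 windows) and 9.09% for the pan-leukocyte markers (1 of 11). The members had the word there in 5 of 10 windows, with *Fcgr3* counted through 2 overlapping windows. The bases are given 5′ to 3′ on the strand of the gene, with the word in capitals. *Fcer1g* and *Fcgrt* are added as the common adaptor and as the gene that did not double, neither with the word. The windows of the doubled genes *Fcgr2b* and *Syk*, which are not printed, lacked it as well.
Fcgr1, chr3:96293970-96294049, minus strand: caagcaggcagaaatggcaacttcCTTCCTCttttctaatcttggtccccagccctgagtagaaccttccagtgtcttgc
Fcgr3, chr1:171059395-171059474, minus strand: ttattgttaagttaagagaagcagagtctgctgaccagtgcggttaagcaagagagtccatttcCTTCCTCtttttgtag
Fcgr4, chr1:171018846-171018925, plus strand: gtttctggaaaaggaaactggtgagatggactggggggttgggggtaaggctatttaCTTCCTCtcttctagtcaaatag
Trem2, chr17:48346321-48346400, plus strand: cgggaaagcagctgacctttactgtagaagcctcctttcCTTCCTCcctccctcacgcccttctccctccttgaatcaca
Fcer1g, chr1:171234350-171234429, minus strand: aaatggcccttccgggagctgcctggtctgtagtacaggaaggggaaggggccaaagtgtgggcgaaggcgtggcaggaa
Fcgrt, chr7:45103823-45103902, minus strand: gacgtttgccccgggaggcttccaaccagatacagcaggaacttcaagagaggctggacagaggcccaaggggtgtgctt

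In each of the 4 sequences the word stands with its pyrimidine strand on the gene strand. It begins 56 bases before the start site in *Fcgr1*, 41 in *Trem2*, 23 in *Fcgr4* and 16 in *Fcgr3*, the last counted from the *Fcgr3* start site nearest the sequence shown. The spelling and the 80-base stretch were chosen after the windows had been read, so the match in these genes is a description. Of the other spellings tried, GAGGAA occurred in the windows of *Fcgr1*, *Fcgr3*, *Fcgr4*, *Syk* and *Trem2* and in 28.3% of all windows. AGGAAG occurred in those of *Fcer1g*, *Fcgr1*, *Fcgr3*, *Fcgr4* and *Trem2* and in 35.4% of all, and GGAAGT in those of *Fcgr1*, *Fcgr2b*, *Fcgr4* and *Syk* and in 23.8% of all. GAGGAAG contains both GAGGAA and AGGAAG, so these counts overlap. Across the table, 18.7% of the 1603 windows of genes with a ratio of 2 or more held GAGGAAG, and 13% of the 12865 windows of genes between 0.5 and 2. A match describes these letters and does not show that a factor binds there.

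The windows also differed in CpG dinucleotides, the sites that DNMT1 maintains in the methylated state. A window had a median of 7 CpG over the genome. *Fcgr1* had 1, *Fcgr4* 2, *Fcgrt* and *Trem2* 5 each, *Fcgr2b* 6 and *Fcer1g* 7, while the windows of 2 *Fcgr3* start sites had 3 and 4. *Syk* was the CpG-rich member, with 31 CpG at its upstream start site, more than 89.4% of all windows had, and 2 at a second start site. The doubled receptor genes thus had no more CpG than the median window. Methylation of these sites was not analysed here.

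*Fcer1g*, the common gamma chain, had 11.52 FPKM in *Dnmt1*-WT and 63.86 FPKM in *Dnmt1*-KO, a ratio of 5.54. It lies on chromosome 1 of GRCm38 from 171229572 to 171234365 on the minus strand. *Tyrobp* had the highest level of the ITAM adaptors in both libraries, 20.89 FPKM in *Dnmt1*-WT and 95.03 FPKM in *Dnmt1*-KO, a ratio of 4.55. It lies on chromosome 7 from 30413760 to 30417585 on the plus strand. These adaptors stood close to each other in both libraries, with 0.551 FPKM of *Fcer1g* per FPKM of *Tyrobp* in *Dnmt1*-WT and 0.672 in *Dnmt1*-KO. The table listed 1 *Fcer1g* variant and 3 *Tyrobp* variants in each library.

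*Trem2*, the lipid-sensing receptor that signals through DAP12, was far below its adaptor. Its level was 0.71 FPKM in *Dnmt1*-WT and 2.97 FPKM in *Dnmt1*-KO, a ratio of 4.18, which was 2.32 with 1 added to each FPKM. *Tyrobp* exceeded it 29.4-fold in *Dnmt1*-WT and 32.0-fold in *Dnmt1*-KO. This proportion rests on the low *Trem2* level in *Dnmt1*-WT, and with 1 added to each FPKM the ratio of *Tyrobp* was 4.39. *Trem2* is on chromosome 17 from 48346401 to 48354147 on the plus strand.

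Among the activating receptors for immunoglobulin G, *Fcgr3* was the main transcript in both libraries. This low-affinity receptor gene, on chromosome 1 from 171051174 to 171064935, had 5.87 FPKM in *Dnmt1*-WT and 23.04 FPKM in *Dnmt1*-KO, a ratio of 3.93 (3.925 before rounding). *Fcgr1*, the high-affinity receptor gene on chromosome 3 from 96282909 to 96293969, had 0.64 and 1.79 FPKM, a ratio of 2.80. *Fcgr4*, on chromosome 1 from 171018920 to 171029761, was the lowest of the 9 genes in *Dnmt1*-WT at 0.33 FPKM and the sixth in *Dnmt1*-KO at 5.17 FPKM. Its ratio of 15.7, taken on plain FPKM, was the largest of the set and had rank 94 among 16102 genes. Because the *Dnmt1*-WT level is low, this ratio depends on how low values are treated, and with 1 added to each FPKM it was 4.64, below the 5.18 of *Fcer1g*, so that *Fcgr4* no longer had the largest ratio.

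*Fcgr2b*, the inhibitory receptor gene on chromosome 1 from 170958617 to 170976547, was listed at 2.86 FPKM in *Dnmt1*-WT and 13.48 FPKM in *Dnmt1*-KO, a ratio of 4.71. The summed level of the 3 activating receptors was 6.84 FPKM in *Dnmt1*-WT and 30 FPKM in *Dnmt1*-KO, a ratio of 4.39. Activating receptors therefore stood at 2.39 FPKM per FPKM of *Fcgr2b* in *Dnmt1*-WT, against 2.23 in *Dnmt1*-KO. The sum is carried by *Fcgr3*, and the single activating receptors had ratios from 2.80 to 15.7. The number of *Fcgr2b* variants listed was 1 in *Dnmt1*-WT and 2 in *Dnmt1*-KO.

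Within the 4 Fc gamma receptor genes the largest difference in make-up was that of *Fcgr4*. Its share of their summed FPKM was 3.40% in *Dnmt1*-WT and 11.9% in *Dnmt1*-KO. The share of *Fcgr3* was 60.5% and 53.0%, that of *Fcgr1* 6.60% and 4.12%, and that of *Fcgr2b* 29.5% and 31.0%. *Fcgr3* exceeded *Fcgr4* 17.8-fold in *Dnmt1*-WT and 4.46-fold in *Dnmt1*-KO, and *Fcgr4* went from 0.516 to 2.89 FPKM per FPKM of *Fcgr1*. *Fcer1g*, which serves these receptors and others, stood at 1.68 FPKM per FPKM of the activating receptors in *Dnmt1*-WT, against 2.13 in *Dnmt1*-KO.

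**Figure D2:**
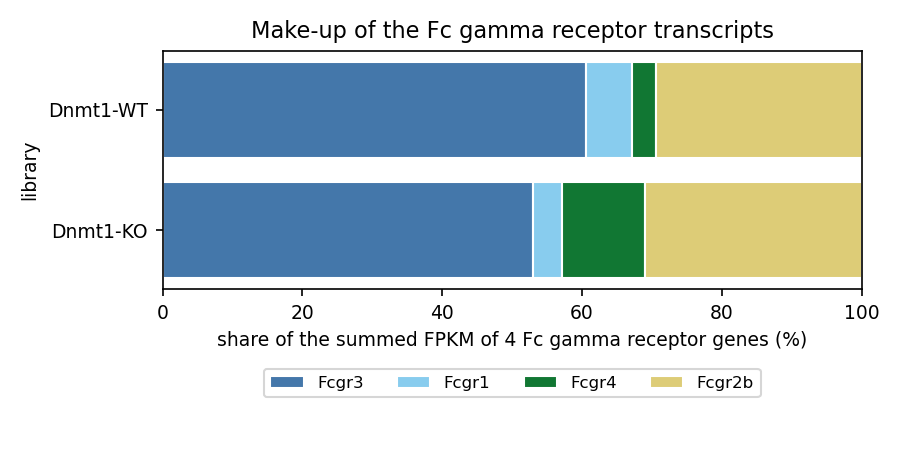
Share of each Fc gamma receptor gene in their summed FPKM, in percent, for the Dnmt1-WT and the Dnmt1-KO library. The Fcgr2b segment is of like width in both bars (29.5% and 31.0%), while the Fcgr4 segment widens from 3.40% to 11.9%.

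*Fcgr2b* and *Fcgr3* have closely related sequences, so reads may be split between them. Of the distinct 50-base words in GENCODE M21 transcripts of *Fcgr3*, 9.58% also occur in *Fcgr2b*, and 2.92% of the words of *Fcgr2b* occur in *Fcgr3*. No other pair among the 9 genes shared a word of this length. Both genes were higher in *Dnmt1*-KO by similar factors, and how the authors' counting divided shared reads is not given in the sources used here. *Tyrobp* and *Hcst*, which encodes the adaptor DAP10, end 126 bases apart on opposite strands and shared no 50-base word. *Hcst* was listed at 0.78 and 3.87 FPKM, a ratio of 4.96.

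*Syk*, the kinase that docks on phosphorylated ITAMs, was higher by less than the adaptors. It had 1.37 FPKM in *Dnmt1*-WT and 3.56 FPKM in *Dnmt1*-KO, a ratio of 2.60, on chromosome 13 from 52583173 to 52648792 on the plus strand. *Tyrobp* stood at 15.2 FPKM per FPKM of *Syk* in *Dnmt1*-WT, against 26.7 in *Dnmt1*-KO. The table listed 4 *Syk* variants in *Dnmt1*-WT and 3 in *Dnmt1*-KO. With 1 added to each FPKM the ratio of *Syk* was 1.92 and that of *Fcgr1* 1.70, so neither was then doubled.

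*Fcgrt*, on chromosome 7 from 45092990 to 45103851, was the most abundant of the 9 genes in both libraries and moved the least. It was listed at 73.79 FPKM in *Dnmt1*-WT and 103.64 FPKM in *Dnmt1*-KO, a ratio of 1.40, and 22.7% of all genes had a ratio at least as large. Its lead over *Fcer1g* went from 6.41-fold to 1.62-fold. The FcRn light chain gene *B2m*, which also serves all classical MHC class I molecules, was listed at 415.79 and 1561.3 FPKM, so that *B2m* per FPKM of *Fcgrt* went from 5.63 to 15.1. *Alb*, which encodes the other FcRn cargo, albumin, was near the lower end of the scale at 0.21 and 0.85 FPKM.

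**Figure D3:**
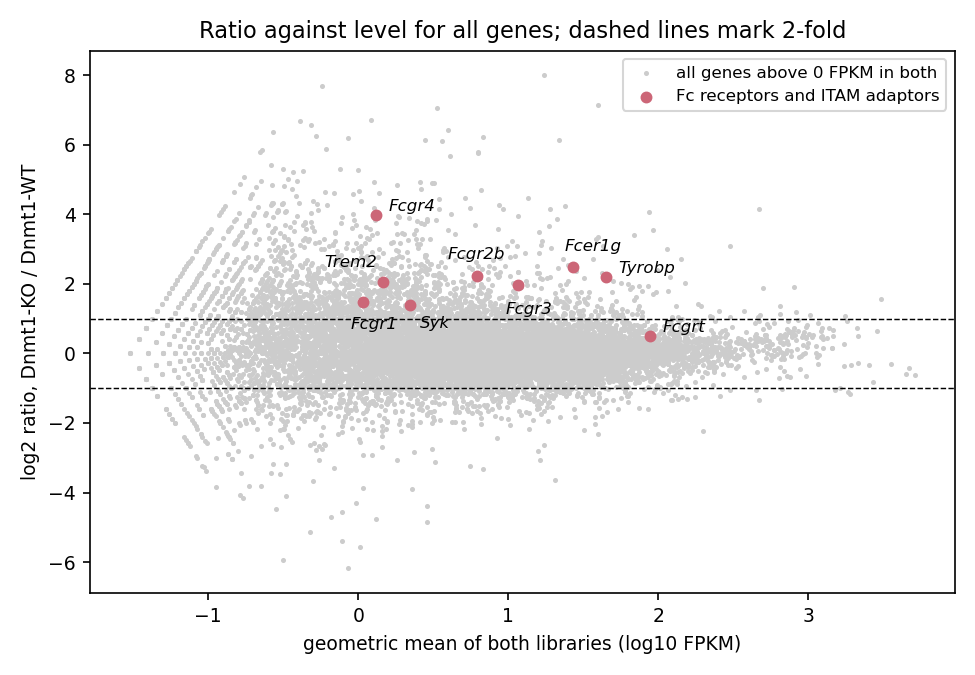
Log2 ratio of the Dnmt1-KO to the Dnmt1-WT library against the geometric mean of both (log10 FPKM) for the 16102 genes above 0 FPKM in both, with the 9 genes in red and dashed lines at 2-fold. Of the 9 genes, 8 lie above the upper dashed line, while Fcgrt lies below it at a ratio of 1.40.

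Position was shared by 4 of the 9 genes, since *Fcgr2b*, *Fcgr4*, *Fcgr3* and *Fcer1g* lie within 275.7 kb of chromosome 1. In the window from 100 kb before *Fcgr2b* to 100 kb after *Fcer1g* the table holds 16 other genes, of which 15 were above 0 FPKM in both libraries. Of these 15 genes, 4 were at least doubled, none was halved and 11 lay in between, with a median ratio of 0.990. An abundant neighbour barely differed between the libraries. *Sdhc*, a respiratory chain subunit gene between *Fcgr3* and *Fcer1g*, was listed at 155.1 and 145.58 FPKM. The doubled neighbours include *Adamts4* (0.38 and 2.86 FPKM), *Apoa2* (0.36 and 2.18 FPKM) and *Nr1i3* (0.08 and 0.17 FPKM). The B cell gene *Fcrla* was listed at 0 in *Dnmt1*-WT, against 0.45 FPKM in *Dnmt1*-KO.

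Transcript length was examined because short transcripts had higher ratios among genes at 1 FPKM or more in both libraries. These genes were put in 10 groups of like size by their longest GENCODE transcript, group 1 being the shortest. The median log2 ratio went from 0.23 in group 1 to -0.25 in group 10, and the share of doubled genes from 13.3% to 1.23%. *Tyrobp* (597 bases), *Fcer1g* (683 bases), *Fcgr4* (1256 bases) and *Fcgr3* (1347 bases) fall in group 1. *Trem2* (4784 bases) and *Syk* (5363 bases) fall in group 8, where 3.03% of genes were doubled. *Trem2*, *Fcgr1* and *Fcgr4* were below 1 FPKM in *Dnmt1*-WT, so they are placed by length only and do not count among the genes of these groups. After the median of each group was set to 0, the ratio of *Fcer1g* was 4.74, that of *Tyrobp* 3.89, that of *Fcgr3* 3.35, that of *Trem2* 4.53 and that of *Syk* 2.81, and the same 8 genes were doubled.

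**Figure D4:**
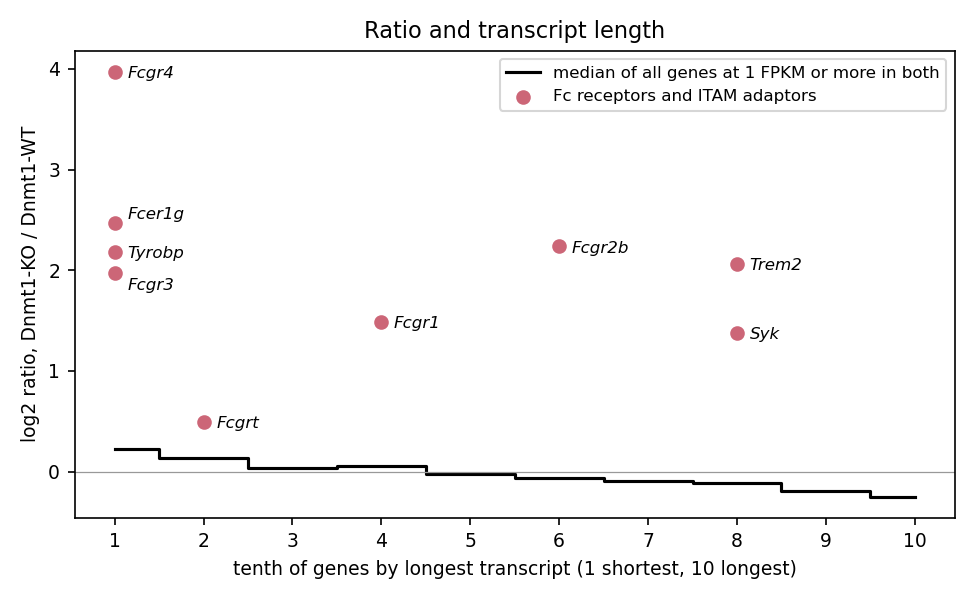
Log2 ratio of the 9 genes (red points) by group of genes ranked on the longest transcript (10 groups), with the black line at the median of all genes at 1 FPKM or more in both libraries. The line descends from 0.23 to -0.25, and all 9 points lie above it.

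The cell types that carry these receptors were followed through marker lists. Of 11 macrophage markers, 9 were at least doubled and none was at 0 in either library, with a summed level of 153.15 FPKM in *Dnmt1*-WT and 531.05 FPKM in *Dnmt1*-KO, a ratio of 3.47. Single markers ranged from *Cx3cr1*, 4.97 and 7.84 FPKM, to *Mpeg1*, 1.34 and 10.05 FPKM. All 8 pan-leukocyte markers were doubled, with a sum of 41.01 against 132.84 FPKM. The part of these cells in the higher receptor levels was not tested.

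Set against the summed macrophage markers of the same library, the members parted ways. *Fcgr3* went from 3.83% to 4.34% of that sum, *Tyrobp* from 13.6% to 17.9%, *Trem2* from 0.464% to 0.559% and *Fcgr2b* from 1.87% to 2.54%. *Fcer1g* went from 7.52% to 12.0%. *Syk* and *Fcgr1* went the other way, from 0.895% to 0.670% and from 0.418% to 0.337%. These directions depend on the marker, because *C1qa*, *C1qb*, *C1qc* and *Lyz2* make up most of the sum. The ratios of *Emr1* (2.04), *Mrc1* (2.17), *Csf1r* (1.77) and *Cx3cr1* (1.58) were below the 2.60 of *Syk* and the 2.80 of *Fcgr1*. In turn, the ratio of *C1qb* (4.20) was above those of *Fcgr3* and *Trem2*. That of *Mpeg1* (7.50) was above those of all members except *Fcgr4*, so also above *Fcer1g*, *Fcgr2b* and *Tyrobp*. The extremes were *Fcgr4*, from 0.215% to 0.974%, and *Fcgrt*, from 48.2% to 19.5%. These are proportions between 2 libraries, and the macrophage list is one choice among many.

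Markers of other cells that may carry members were higher in part. Of 8 endothelial markers, 7 were doubled, with a sum of 61.65 FPKM in *Dnmt1*-WT and 157.57 FPKM in *Dnmt1*-KO, a ratio of 2.56, against 1.40 for *Fcgrt*. Enterocyte markers summed to 284.98 and 580.65 FPKM, with 3 of 8 doubled and *Sis* lower at 1.93 and 0.51 FPKM. Mast cells use *Fcer1g* in the receptor for immunoglobulin E, and their protease genes *Tpsb2* and *Cma1* were listed at 0 in *Dnmt1*-WT, against 2.08 and 1.55 FPKM in *Dnmt1*-KO. *Cpa3*, a further mast cell protease gene, had 0.06 and 1.15 FPKM. *Mcpt4* was at 0 and 0.03 FPKM, and *Kit*, which interstitial cells of Cajal also express, had 38.95 and 38.1 FPKM. The part of these cells in the members' levels was not tested.

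**Figure D5:**
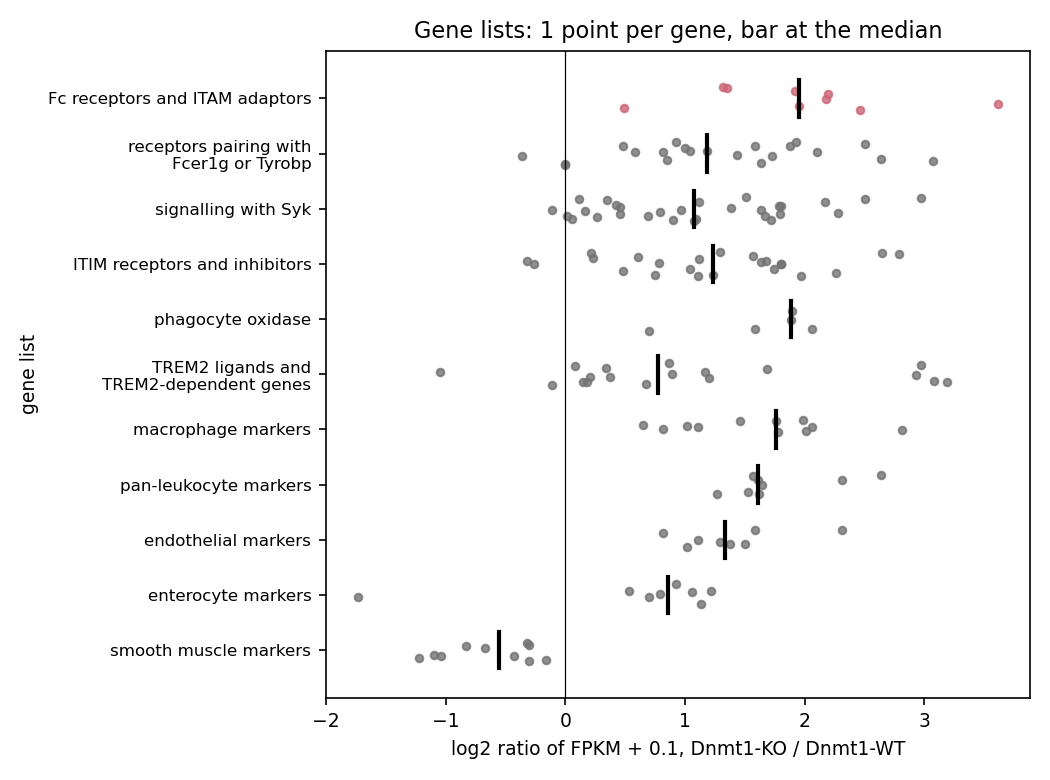
Log2 ratio of FPKM + 0.1 between the Dnmt1-KO and Dnmt1-WT libraries for each gene (1 point) of the Fc receptor set, related pathway lists and marker lists, with a bar at each list's median. The Fc receptor set (red) has its median at 1.95, the macrophage markers at 1.76, the pan-leukocyte markers at 1.61 and the smooth muscle markers at -0.55.

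Genes listed as receptors that pair with *Fcer1g* or *Tyrobp*, or signal by way of them, were mostly higher too. Of 26 such genes 21 were in the table and 12 were above 0 FPKM in both libraries, of which 9 were doubled, 1 was halved and 2 lay in between. Another 8 were listed at 0 in *Dnmt1*-WT only. With 1 added to each FPKM 4 genes of this list were doubled. With a minimum of 5 FPKM in at least 1 library 1 was, *Clec4n*, which passes it through the *Dnmt1*-KO library alone. That minimum also drops most genes of the list, so a smaller count partly follows from the filter. The doubled genes include *Clec4n*, which encodes the fungal sensor Dectin-2 and had 1.34 and 5.18 FPKM, *Siglec1*, the sialoadhesin of tissue macrophages, with 0.43 and 2.91 FPKM, and the integrin chain genes *Itgb2* (0.71 and 4.96 FPKM) and *Itgam* (0.87 and 2.92 FPKM). *Csf1r*, the receptor for the macrophage growth factor CSF1, was the most abundant at 14.79 and 26.16 FPKM, a ratio of 1.77. *Clec5a* was the halved gene, at 0.08 and 0.04 FPKM, where a ratio carries little weight.

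In signalling with SYK, 28 of 29 genes were above 0 FPKM in both libraries, of which 15 were doubled and none halved. Most of the doubled genes were below 1 FPKM in *Dnmt1*-WT, and the doubled genes numbered 5 with 1 added to each FPKM and 1 with the 5 FPKM minimum. That gene, *Rac2* (2.62 and 7.63 FPKM), passes the minimum through the *Dnmt1*-KO library alone. The doubled genes include the adaptor gene *Card9* (0.12 and 1.63 FPKM), the kinase gene *Btk* (0.12 and 0.66 FPKM), the phospholipase gene *Plcg2* (0.55 and 1.97 FPKM) and *Vav1* (0.66 and 2.26 FPKM). The other 13 genes lay between ratios of 0.5 and 2, among them widely expressed genes. *Fyn* had 18.2 and 20.4 FPKM, *Bcl10* 8.33 and 8.68 FPKM, *Malt1* 1.37 and 1.38 FPKM, and *Cbl*, a ubiquitin ligase gene, 6.04 and 6.53 FPKM. *Lyn*, which phosphorylates ITAMs and ITIMs, was just short of doubling at 4.07 and 8.04 FPKM. *Fgr* was listed at 0 in *Dnmt1*-WT, against 0.23 FPKM in *Dnmt1*-KO.

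Inhibitory genes were followed in the same way. Of 23 ITIM receptors and inhibitory enzymes, 21 were above 0 FPKM in both libraries, 13 were doubled and none was halved. With 1 added to each FPKM 6 were doubled, and with the 5 FPKM minimum 3. Of those 3, *Ptpn6* and *Inpp5d* pass the minimum through the *Dnmt1*-KO library alone. The phosphatase genes of leukocytes, *Ptpn6* (SHP-1, 1.67 and 5.55 FPKM) and *Inpp5d* (SHIP-1, 1.38 and 5.05 FPKM), which act below *Fcgr2b* and its relatives, were doubled, while the widely expressed phosphatase gene *Ptpn11* had 43.77 and 36.44 FPKM. Among the receptors, *Pirb* had 1.02 and 3.81 FPKM and *Lilrb4* 0.33 and 2.6 FPKM. *Sirpa*, the receptor for the CD47 signal against phagocytosis, had 13.36 and 18.69 FPKM, a ratio of 1.40.

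Of the 5 genes of the phagocyte oxidase, which SYK signalling activates, 4 were doubled. *Cybb*, the catalytic subunit gene, had 1.2 and 3.8 FPKM, *Ncf1* 1.44 and 5.64 FPKM and *Ncf4* 0.5 and 2.12 FPKM. *Cyba*, whose product also serves oxidases outside leukocytes, had 74.63 and 121.06 FPKM, a ratio of 1.62. With the 5 FPKM minimum 1 gene of the list was doubled, *Ncf1*, which passes it through the *Dnmt1*-KO library alone.

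The list of TREM2 ligands and of genes known to depend on TREM2 in microglia was mixed, with 7 of 17 genes doubled, 9 in between and *Ank* halved at 29.72 and 14.32 FPKM. With the 5 FPKM minimum 4 genes were doubled, of which *Ccl6* (3.45 and 32.27 FPKM) passes it through the *Dnmt1*-KO library alone. The ligand gene *Apoe* had 542.76 and 1247.11 FPKM. The doubled genes include *Lpl* (5.63 and 48.51 FPKM), which adipocytes also express, *Itgax* (0.07 and 1.2 FPKM), *Clec7a* (0.21 and 2.34 FPKM), *Lgals3* (12.24 and 27.64 FPKM) and *Gpnmb* (0.14 and 0.67 FPKM). *Spp1* was nearly level at 0.81 and 0.74 FPKM, and so were the lysosomal protease genes *Ctsd* (184.78 and 213.14 FPKM) and *Ctsl* (117.67 and 130.49 FPKM). Adipocyte markers were much higher in *Dnmt1*-KO, with a sum of 110.62 against 1208.12 FPKM, and their part in *Lpl* and *Apoe* was not tested.

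Other Fc receptors gave few usable values. Of 12 genes 8 were in the table, and the 4 above 0 FPKM in both libraries were *Pigr*, the epithelial carrier of immunoglobulin A, at 1.52 and 4.93 FPKM, *Fcrls* at 4.48 and 4.93 FPKM, *Trim21*, the cytosolic Fc receptor, at 3.95 and 3.59 FPKM, and *Faim3*, the receptor for immunoglobulin M, at 0.08 and 0.17 FPKM. The remaining 4, *Fcer2a*, *Fcrl1*, *Fcrl6* and *Fcrla*, were listed at 0 in *Dnmt1*-WT, against no more than 0.45 FPKM in *Dnmt1*-KO. The ITAM chains of T and B cell receptors stayed at or below 1.5 FPKM in both libraries. *Cd79b* had 0.52 and 1.5 FPKM and *Cd3e* 0 and 0.62 FPKM. Of 11 immunoglobulin chain genes 1 was in the table, *Igj*, the joining chain gene, listed at 0 and 0.07 FPKM.

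Over these pathway lists, 93 of 113 distinct genes in the table were above 0 FPKM in both libraries, of which 55 were doubled and 2 halved, and 27 were doubled with 1 added to each FPKM. A further 19 were listed at 0 in *Dnmt1*-WT only. Their median log2 ratio with 0.1 added was 1.12, between that of the 9 genes and the 0.02 of all genes.

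The genes most like the members in both libraries were found as the shortest distance between log2 values of FPKM + 0.1, over 13865 genes with 1 FPKM or more in at least 1 library. With 2 libraries this measures only a like level and a like ratio. *Tyrobp* lay nearest to *Cyr61* (distance 0.14, 18.97 and 94.41 FPKM), *C1qb* (0.23) and *C1qc* (0.35). For *Fcer1g* the nearest were *Serpinf1* (0.11, 12.45 and 63.83 FPKM), *Guca2a* (0.18) and *Scd1* (0.33). *Fcgrt* lay among *Lsm7* (0.05), *Cox20* (0.05) and *Bola2* (0.07), and *Syk* among *Arhgap27* (0.01), *Ctla2b* (0.04) and *Rnf125* (0.07).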

How the data were processed

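The authors sent RNA to a company, LC Sciences, which carried out the mRNA-seq. The kit named for the library step is TruSeq RNA, and reads were mapped to GRCm38/mm10. The submitters' processing notes name TopHat 1.4.1 and Cufflinks 2.0.2. The authors deposited, for each gene symbol, FPKM and the number of transcript variants in each library, together with their own fold change, which was not used. The table holds no read counts, and neither the depth behind a value nor an interval was computed from FPKM. Values at the foot of the scale (the lowest above 0 was 0.03 FPKM) carry little weight.

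With 1 library per genotype, plain FPKM ratios were formed without rescaling or test, and genes at 0 in a library received no ratio. Fold calling was run on simulated data, with an assumed noise and with changes beyond the limit planted in genes at 1 FPKM or more in *Dnmt1*-WT. That run checks the code only. It cannot show how much 2 libraries of 1 genotype would differ, or how genes at lower levels behave. The members and gene lists were chosen with earlier results of these data known, from general knowledge of the pathway. Genes named in the text are the 9 members, *Dnmt1*, genes of these lists and the 3 nearest genes of *Fcer1g*, *Tyrobp*, *Fcgrt* and *Syk*. Neighbours on chromosome 1 were added for their position, after values had been seen. GENCODE M21, which holds 17204 of the 18159 symbols, gave transcript length and base composition. Promoter windows came from RefSeq. Alternatives were the scaling, centring on length and GC content, pseudocount, low-value filter and fold. Python 3.11.15, numpy 2.4.6, pandas 2.3.3 and matplotlib 3.10.9 were used. Some genes of the lists and of the chromosome 1 window are not reported here by name.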

Additional observations from a re-analysis of the deposited data

How the results depend on the processing

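All 9 genes kept a ratio above 1 under every scaling, centring and pseudocount tried. The number doubled was 8 under each alternative except those that follow from their construction: a pseudocount of 1 left 6, a fold of 3 left 6, and a minimum of 5 FPKM in at least 1 library left 5 of the 6 genes it keeps, of which *Fcgr2b* and *Fcgr4* pass through the *Dnmt1*-KO library alone, so that this count and the median below are partly set by the filter. The median log2 ratio of the set was 1.98 with median centring and with the trimmed mean, 2.02 with the upper quartile, 1.85 with the FPKM sum, which removes 0.10 on the log2 scale from every gene, and 1.86 with that sum without small RNA genes. It was 1.95 centred on transcript length, 1.99 centred on GC content, 2.05 with a pseudocount of 0.01, 1.81 with a pseudocount of 1 and 2.19 with at least 5 FPKM. The doubled pathway genes numbered 27 with a pseudocount of 1, 11 with at least 5 FPKM and 73 with a pseudocount of 0.01, which gives genes at 0 a ratio, against 55. The 11 are partly set by the filter as well, since genes such as *Rac2* and *Ptpn6* pass it through the *Dnmt1*-KO library alone. The ratio of *Fcgr4* ranged from 4.64 with a pseudocount of 1 to 16.4 with the upper quartile. No paired analysis was possible because each genotype has 1 library, and no library could be left out for the same reason. The table holds no read counts, so no counting limits were computed for genes below 1 FPKM.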

Other observations

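Markers of lymphoid, dendritic and neutrophil cells, some of which carry other ITAM-bearing receptors, had low levels in both libraries. Of 7 natural killer cell markers, *Ncr1*, *Klrb1c*, *Klrk1* and *Prf1* were listed at 0 in *Dnmt1*-WT and at no more than 0.33 FPKM in *Dnmt1*-KO, while *Nkg7* had 0.53 and 1.58 FPKM and *Gzma* 0.2 and 1.08 FPKM. T cell markers summed to 0.77 FPKM in *Dnmt1*-WT and 3.23 FPKM in *Dnmt1*-KO, and B cell markers to 1.07 and 3.08 FPKM. Among dendritic cell markers, *Xcr1*, *Cd209a* and *Ccr7* were listed at 0 in *Dnmt1*-WT and at 0.53, 0.3 and 0.43 FPKM in *Dnmt1*-KO, and *Clec9a* had 0.31 and 1.55 FPKM. The neutrophil markers *S100a8* and *Retnlg* had 0 and 2 FPKM and 0.67 and 4.06 FPKM, while *S100a9* had 0.33 and 0.44 FPKM and *Mpo* was at 0 in both. Platelets use *Fcer1g* in their collagen receptor, and of their markers *Pf4* had 18.55 and 54.41 FPKM, while *Itga2b*, the platelet integrin chain gene, was lower in *Dnmt1*-KO at 11.55 and 4.13 FPKM. The other platelet markers in the table were near the lower end of the scale in both libraries. *Ppbp* had 0 and 0.41 FPKM, *Gp9* 0.08 and 0.21 FPKM and *Gp1ba* 0.34 and 0.41 FPKM. The part of these cells in the level of *Fcer1g* was not tested.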
